A study of Homo sapiens with 15 samples.

Results

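The desmosome core genes examined here were the desmosomal cadherins DSC2, DSC3, DSG2 and DSG3, the armadillo plaque proteins JUP, PKP1, PKP2 and PKP3, the plakin DSP and the tetraspan membrane protein PERP. They were taken by gene symbol from the deposited count table, and all 10 of the 10 symbols were found among the 61544 genes listed there. RNA-seq was performed in HCC95, a human cell line of lung squamous cell carcinoma (LUSC), after knockdown with siRNA. The 5 groups of 3 libraries each were siTP63b, siSOX2b, siKLF5b and siGRHL2a, directed at the transcription factor genes TP63, SOX2, KLF5 and GRHL2, and the negative control siRNA siNC1. All groups share the cell line and the transfection of an siRNA, each target is represented by 1 siRNA label, and the time of harvest is not given in the sources used here. The labels number the libraries within a group but do not say whether they came from separate cultures, so that p-values measure the spread between these libraries, which may be technical.

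Desmosomes are the junctions that anchor the keratin filaments of neighbouring epithelial cells to each other. Desmocollins and desmogleins bind across the gap between cells, plakoglobin (JUP) and the plakophilins bind their tails on the inner side, and desmoplakin (DSP) links this plaque to keratin. In stratified squamous epithelium, DSC3 and DSG3 are prominent in the lower layers and PKP1 in the layers above them, whereas DSC2, DSG2 and PKP2 are widespread and also occur in simple epithelia and in heart muscle. PERP, a target of the p53 family that includes p63, is needed for stable desmosomes in stratified epithelia.

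Library totals ranged from 15655495 to 34229063 counts, and the 10 genes together took 0.200% to 0.257% of the counts of a library. The libraries fell into 2 sets by the form of their column names, siNC1 with siKLF5b, and siTP63b with siSOX2b and siGRHL2a. In the second set 66.1% to 69.0% of gene counts between 20 and 500 were even numbers, against 49.7% to 50.7% in the first, and the first principal component, with 51.0% of the variance, separated the sets. A difference of siTP63b, siSOX2b or siGRHL2a from siNC1 therefore cannot be told apart from the set, and tests were read within a set: siKLF5b with siNC1, and the other three knockdowns with each other. Of the targeted genes, KLF5 was 71.8 to 73.8 CPM in siKLF5b and 107 to 123 CPM in siNC1 (log2FC -0.64 ± 0.06 (SE), adjusted p = 5.3e-10 from the quasi-likelihood test of edgeR, adjusted by Benjamini-Hochberg over all genes, as throughout). SOX2 was higher in siKLF5b than in siNC1, with means of 107 and 73.3 CPM (log2FC 0.54 ± 0.08 (SE), adjusted p = 3.7e-06). TP63 and GRHL2 were not called there (log2FC -0.13 and 0.06). Within the second set, in the order siTP63b, siSOX2b and siGRHL2a, mean levels were 363, 690.0 and 831 CPM for TP63, 29.5, 8.97 and 20.2 CPM for SOX2, and 117, 100.2 and 91.3 CPM for GRHL2, where CPM is the count scaled to the library's normalised total. Each target was thus lowest in its own group, by a small margin for GRHL2. Squamous markers were abundant in every library, with 8 genes summing to 6034 to 12328 CPM, of which KRT5 alone made up 73.4% to 83.1%, while 5 general epithelial markers summed to 3066 to 4498 CPM and 16 markers of fibroblasts, immune cells, endothelium and alveolar cells summed to 16.3 to 26.3 CPM and 5 of these 16, DCN, CD3E, LYZ, CD14 and SFTPC, had at most 3 counts in every library.

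In the hg38 spans of the deposited table, the 4 cadherin genes lie together on chromosome 18, with DSC3 (ENSG00000134762.17) at chr18:30989365-31042815 and DSC2 (ENSG00000134755.18) at chr18:31058840-31102522 on the minus strand and DSG3 (ENSG00000134757.5) at chr18:31447741-31478702 and DSG2 (ENSG00000046604.14) at chr18:31498177-31549008 on the plus strand. The plaque genes are spread over 4 chromosomes, with JUP (ENSG00000173801.17) at chr17:41754604-41786931 and PKP2 (ENSG00000057294.16) at chr12:32790755-32896777 on the minus strand and PKP1 (ENSG00000081277.13) at chr1:201283452-201332993 and PKP3 (ENSG00000184363.10) at chr11:392614-404908 on the plus strand. Both remaining members are on chromosome 6, with DSP (ENSG00000096696.15) at chr6:7541617-7586714 on the plus strand and PERP (ENSG00000112378.12) at chr6:138088505-138107419 on the minus strand. The spans hold exons and introns, and the exons of Gencode release 44 make up 9.70% (PKP2) to 30.9% (PKP3) of them. Promoter sequences were available from RefSeq on GRCh38.p14 for 8 of the 10 genes, all but PKP2 and PKP3. Each covers 250 bases before and 50 bases from the annotated start. The promoters of DSC3 and DSP are shown because these genes had the most similar pattern of all pairs of members. Those of DSC2 and PKP1 are shown as genes lower in siKLF5b than in siNC1, and that of PERP as a gene higher there. Capitals mark the CACCC box CCACCC, a core bound by KLF factors, and the GC box GGGCGG, on either strand (GGGTGG and CCGCCC when read from the other).

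DSC3 (chr18:31042693-31042992, minus strand): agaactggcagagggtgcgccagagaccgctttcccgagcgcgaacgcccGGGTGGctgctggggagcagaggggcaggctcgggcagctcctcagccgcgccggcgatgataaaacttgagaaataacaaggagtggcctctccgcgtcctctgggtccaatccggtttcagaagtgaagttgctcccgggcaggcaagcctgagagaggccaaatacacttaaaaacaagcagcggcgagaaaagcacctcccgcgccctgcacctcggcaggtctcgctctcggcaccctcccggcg
DSP (chr6:7541421-7541720, plus strand): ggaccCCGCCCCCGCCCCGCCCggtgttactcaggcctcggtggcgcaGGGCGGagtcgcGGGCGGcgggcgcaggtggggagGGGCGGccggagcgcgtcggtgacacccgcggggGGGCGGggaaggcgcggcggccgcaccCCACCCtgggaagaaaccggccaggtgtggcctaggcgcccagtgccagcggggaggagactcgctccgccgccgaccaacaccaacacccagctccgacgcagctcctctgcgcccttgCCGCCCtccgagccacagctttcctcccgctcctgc
DSC2 (chr18:31102372-31102671, minus strand): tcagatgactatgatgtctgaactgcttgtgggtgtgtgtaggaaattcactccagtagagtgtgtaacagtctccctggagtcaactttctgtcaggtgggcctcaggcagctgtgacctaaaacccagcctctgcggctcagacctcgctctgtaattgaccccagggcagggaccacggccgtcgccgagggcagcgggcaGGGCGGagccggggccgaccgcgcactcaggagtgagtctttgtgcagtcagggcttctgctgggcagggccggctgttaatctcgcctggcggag
PKP1 (chr1:201283256-201283555, plus strand): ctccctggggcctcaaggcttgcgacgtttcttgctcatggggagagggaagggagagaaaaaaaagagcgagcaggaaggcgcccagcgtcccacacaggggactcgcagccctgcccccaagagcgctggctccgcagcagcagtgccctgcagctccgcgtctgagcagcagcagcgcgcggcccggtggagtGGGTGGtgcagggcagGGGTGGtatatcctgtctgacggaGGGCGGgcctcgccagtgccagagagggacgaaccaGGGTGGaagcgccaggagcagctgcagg
PERP (chr6:138107370-138107669, minus strand): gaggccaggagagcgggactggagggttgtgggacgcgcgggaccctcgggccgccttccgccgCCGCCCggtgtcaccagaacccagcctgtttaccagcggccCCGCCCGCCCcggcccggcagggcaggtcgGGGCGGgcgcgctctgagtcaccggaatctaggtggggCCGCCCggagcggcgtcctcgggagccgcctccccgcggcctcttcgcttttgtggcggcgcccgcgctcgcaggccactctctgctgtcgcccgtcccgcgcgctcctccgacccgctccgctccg

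A CACCC box was found in 6 of the 8 promoters and in 37.1% of the 15232 promoters of protein-coding genes in the table. PKP1 had 3, DSG2 had 2, DSC3, DSG3, JUP and DSP had 1 each, and DSC2 and PERP had 0. The GC box was found in 6 of 8 promoters, against 59.2% of all, with 8 in DSP, some overlapping, 5 in PERP and 0 in DSC3 and DSG3. None of the 8 held the grainyhead core AACCNGTT (1.62% of all promoters), the SOX core ACAATG (7.83%), the TATA box TATAAA (9.57%) or the p63 half-site core CATG repeated after 6 bases (0.263%), each searched on both strands. GC content was lowest in DSG3 and highest, at 77.0%, in DSP and PERP. These matches describe the letters of a 300-base window only.

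The members were not equally abundant. Levels of different genes were set side by side per kb of exon. Since counts were deposited for whole gene spans and may hold intronic reads, this scale and the ranks below are approximate. The levels in siNC1 were 51.7 CPM per kb for PERP, 41.6 for DSG2, 41.6 for PKP1, 39.7 for DSP, 36.9 for DSC3, 36.0 for JUP and 20.7 for DSG3. These 7 genes ranked between 645 and 1927 among the 15351 protein-coding genes tested. PKP2 followed at 8.55, DSC2 at 3.92 and PKP3 at 2.94 CPM per kb, with ranks of 4501, 7408 and 8468. Thus the squamous desmocollin DSC3 was far above DSC2, whereas of the desmogleins the widespread DSG2 was above DSG3. Of the desmosomal cadherins with a more restricted expression, DSC1 had 0 to 14 and DSG4 0 to 2 counts per library, whereas DSG1 had 65 to 242 counts.

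**Figure D1:**
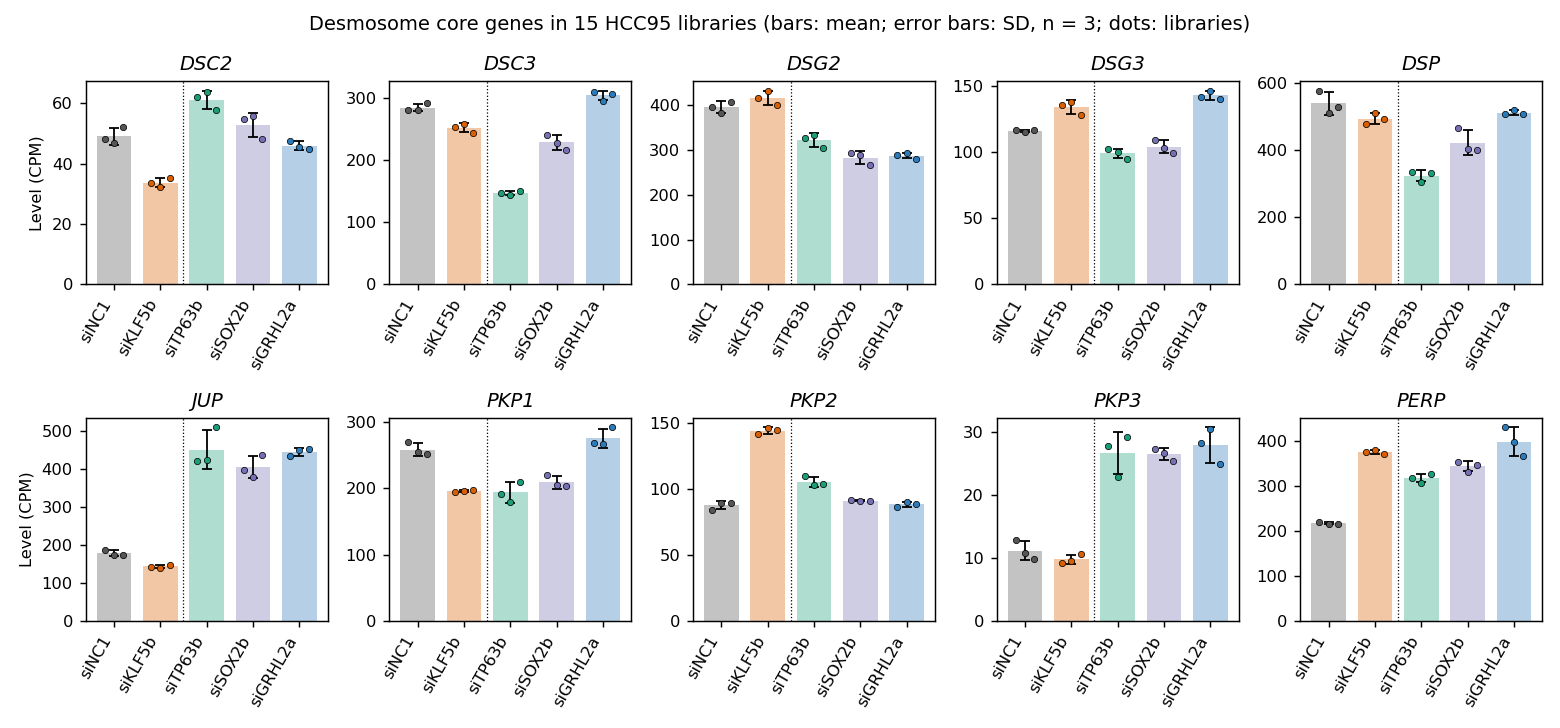
Level of each of the 10 genes (CPM, vertical axis from 0) in the 5 groups; bars give the mean of 3 libraries, error bars the SD and dots the libraries, and the dotted line separates the 2 sets of libraries. Within a set, DSC3 and DSP are lowest in siTP63b and PERP is lower in siNC1 than in siKLF5b, and JUP and PKP3 stand higher in all 9 libraries right of the line than in all 6 left of it.

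Between siKLF5b and siNC1, members of the group differed in both directions. Against siNC1, DSC2, PKP1, JUP and DSC3 were lower and PERP, PKP2 and DSG3 were higher at an adjusted p below 0.05, and DSG2, PKP3 and DSP did not pass. Over all 25108 genes tested, 12.9% were lower and 10.3% were higher at this threshold. Among the 8795 genes with a mean of 20.4 CPM or more over the 15 libraries, 26.0% were lower and 14.5% were higher. This limit, used throughout, is the mean of PKP3, the lowest member. PKP3 itself lay below it in these groups, at 9.77 CPM in siKLF5b and 11.2 CPM in siNC1. The median log2FC was -0.15 over the 10 genes and -0.0097 over all genes. With an absolute log2FC above 0.75 in addition, which 3.26% of all genes passed, PERP alone of the 10 was called. RNA came from bulk cultures, in which fewer cells of a type and less RNA per cell cannot be told apart.

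Among the cadherins, DSC2 was 33.6, 32.2 and 35.4 CPM in siKLF5b and 48.3, 46.7 and 52.2 CPM in siNC1. The groups did not overlap, and DSC2 was 1.46-fold lower (log2FC -0.55 ± 0.07 (SE), adjusted p = 2.7e-07). DSC3 was 253, 258 and 244 CPM against 281, 281 and 292 CPM. All siKLF5b libraries lay below all siNC1 libraries, but the step was small (log2FC -0.18 ± 0.05 (SE), adjusted p = 0.0046). DSG3, the pemphigus vulgaris antigen, moved the other way, with 136, 138 and 128 CPM in siKLF5b and 116, 115 and 116 CPM in siNC1 (log2FC 0.21 ± 0.05 (SE), adjusted p = 0.0019). DSG2, the highest of the 4 cadherins per kb of exon in these 2 groups and overlapped by an antisense lncRNA (given with the cluster), was 416, 432 and 401 CPM against 396, 383 and 407 CPM. These libraries overlapped and the difference did not pass (log2FC 0.07, 95% interval -0.02 to 0.17).

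Of the plaque proteins, PKP1, the plakophilin of squamous epithelium, was 194, 195 and 197 CPM in siKLF5b and 269, 254 and 251 CPM in siNC1. The siKLF5b libraries were nearly identical to each other and all lower (log2FC -0.40 ± 0.05 (SE), adjusted p = 9e-07). PKP2, the plakophilin also found in heart, was 142, 147 and 145 CPM against 84.3, 89.7 and 89.8 CPM. It was 1.64-fold higher, with a wide gap between the groups (log2FC 0.72 ± 0.05 (SE), adjusted p = 7.2e-13), just inside the 0.75 limit. JUP, which is shared with adherens junctions, was 142, 139.6 and 149 CPM against 187, 173 and 173 CPM. It was 1.24-fold lower without overlap (log2FC -0.31 ± 0.06 (SE), adjusted p = 0.00027). PKP3, the least abundant member, had 9.15, 9.53 and 10.6 CPM against 12.9, 10.8 and 9.86 CPM, with overlapping libraries (log2FC -0.20, 95% interval -0.44 to 0.04).

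DSP was 479, 511 and 495 CPM in siKLF5b and 578, 512 and 531 CPM in siNC1. The lowest siNC1 library lay just above the highest of siKLF5b, and the difference missed the threshold (log2FC -0.13 ± 0.05 (SE), adjusted p = 0.093). It passed when only the 6 libraries were fitted (adjusted p = 0.041) and without siNC1 replicate 2 (adjusted p = 0.047). PERP showed the largest absolute log2FC of the 10, with 375, 379.8 and 370.1 CPM against 219, 215 and 217 CPM. The 3 siKLF5b libraries all stood far above the siNC1 libraries, and the gene was 1.73-fold higher (log2FC 0.79 ± 0.05 (SE), adjusted p = 2.1e-13). Of the 10 genes, 8 had groups that did not overlap, compared with 42.5% of all genes. The latter share includes genes of low counts and was not computed for those at 20.4 CPM or more.

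**Figure D2:**
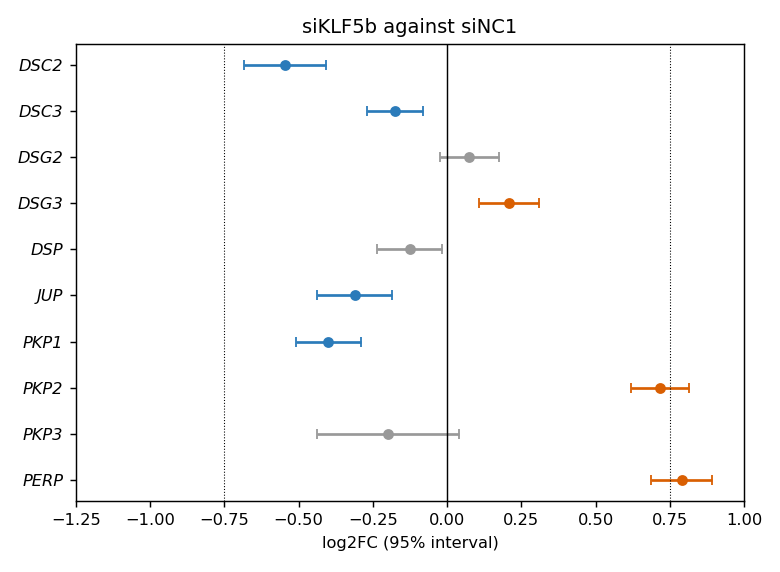
Log2FC of siKLF5b against siNC1 for each member (horizontal axis; points, edgeR estimate; bars, 95% interval without adjustment for multiple testing). Blue marks genes lower and orange genes higher at an adjusted p below 0.05, grey those that did not pass, and dotted lines stand at an absolute log2FC of 0.75; PERP and PKP2 lie far to the right and DSC2 and PKP1 to the left.

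Within the second set, a TP63 knockdown could be set against the knockdowns of SOX2 and GRHL2 but not against a control of its own set. The 3 comparisons share groups and are not independent. Against siSOX2b, DSC3 and DSP were lower in siTP63b and DSC2, DSG2, JUP and PKP2 were higher, while DSG3, PKP1, PKP3 and PERP did not pass. Over all genes 15.4% were lower and 16.4% higher, and among the genes at 20.4 CPM or more 24.2% and 25.5%. Both thresholds, which 6.70% of genes passed, were passed by 0 of the 10. Against siGRHL2a, DSC3, DSP, DSG3, PKP1 and PERP were lower in siTP63b, DSC2, PKP2 and DSG2 were higher, and JUP and PKP3 did not pass. The background here was 13.4% lower and 13.6% higher, or 18.0% and 24.5% at 20.4 CPM or more, and DSC3 was the 1 member past both thresholds (5.39% of all genes). In siSOX2b against siGRHL2a, DSG3, DSC3, PKP1, DSP and PERP were lower, DSC2 was higher, and DSG2, JUP, PKP2 and PKP3 did not pass. All genes gave 12.7% lower and 11.8% higher, and those at 20.4 CPM or more 18.9% and 22.7%. Both thresholds were passed by 0 members and 3.32% of genes. The median log2FC over the 10 genes was -0.03, -0.20 and -0.17 in these 3 comparisons, against 0.00059, -0.0090 and -0.02 over all genes. Groups did not overlap for 6, 8 and 7 of the 10 genes, against 38.3%, 35.6% and 35.2% of all genes, including those of low counts.

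DSC3 had the widest range of the cadherins. It was 148, 144 and 149 CPM in siTP63b, 239.5, 228 and 217 CPM in siSOX2b and 309.5, 295 and 306 CPM in siGRHL2a. The 3 groups formed separate steps without overlap. Its level in siTP63b was 2.07-fold below that in siGRHL2a (log2FC -1.05 ± 0.05 (SE), adjusted p = 2.6e-17) and 1.55-fold below that in siSOX2b (log2FC -0.63 ± 0.05 (SE), adjusted p = 1.9e-12). The step from siSOX2b to siGRHL2a was smaller (log2FC -0.41 ± 0.05 (SE), adjusted p = 3e-08).

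The other desmocollin, DSC2, ran in the opposite order, with 61.9, 63.7 and 57.8 CPM in siTP63b, 54.6, 55.7 and 48.3 CPM in siSOX2b and 47.5, 45.5 and 44.8 CPM in siGRHL2a. The siTP63b libraries were highest, and the groups did not overlap. DSC2 was higher in siTP63b than in siGRHL2a (log2FC 0.41 ± 0.06 (SE), adjusted p = 6e-06) and than in siSOX2b (log2FC 0.21 ± 0.06 (SE), adjusted p = 0.012). The call against siSOX2b was lost without siTP63b replicate 2 (adjusted p = 0.060) and without siSOX2b replicate 3 (adjusted p = 0.11). It was also higher in siSOX2b than in siGRHL2a (log2FC 0.21 ± 0.06 (SE), adjusted p = 0.016), which no longer passed without siSOX2b replicate 1 (adjusted p = 0.052) or replicate 2 (adjusted p = 0.079).

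DSG3 was 102, 99.8 and 94.8 CPM in siTP63b, 109, 103 and 99.4 CPM in siSOX2b and 142, 146 and 139.9 CPM in siGRHL2a. It was high in siGRHL2a, whereas the siTP63b and siSOX2b libraries overlapped (log2FC -0.07, 95% interval -0.17 to 0.03). The gene was lower than in siGRHL2a in siTP63b (log2FC -0.53 ± 0.05 (SE), adjusted p = 4e-10) and in siSOX2b (log2FC -0.46 ± 0.05 (SE), adjusted p = 1.4e-08). DSG2 was 327, 333 and 303 CPM in siTP63b, 293, 288 and 265 CPM in siSOX2b and 287, 293 and 280.4 CPM in siGRHL2a. Here siTP63b was slightly above siSOX2b (log2FC 0.19 ± 0.05 (SE), adjusted p = 0.0033) and siGRHL2a (log2FC 0.16 ± 0.05 (SE), adjusted p = 0.011), and the latter groups overlapped (log2FC -0.02, 95% interval -0.12 to 0.08).

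DSP, which every desmosome needs to reach keratin, was 336, 307 and 331 CPM in siTP63b, 466, 404 and 400.2 CPM in siSOX2b and 508, 522 and 508 CPM in siGRHL2a. As for DSC3, the groups formed 3 steps without overlap, although siSOX2b replicate 1 stood above the other 2 of its group. DSP was 1.58-fold lower in siTP63b than in siGRHL2a (log2FC -0.66 ± 0.05 (SE), adjusted p = 4.4e-11) and 1.3-fold lower than in siSOX2b (log2FC -0.38 ± 0.05 (SE), adjusted p = 1.5e-06). It was also lower in siSOX2b than in siGRHL2a (log2FC -0.28 ± 0.05 (SE), adjusted p = 0.00026). PERP was 318, 308 and 326 CPM in siTP63b, 353, 331 and 347 CPM in siSOX2b and 429.7, 398 and 366 CPM in siGRHL2a. The order of the means was the same, and siTP63b was lower than siGRHL2a (log2FC -0.33 ± 0.05 (SE), adjusted p = 4e-06), as was siSOX2b (log2FC -0.21 ± 0.05 (SE), adjusted p = 0.0016). Between siTP63b and siSOX2b the gene missed the threshold (log2FC -0.12 ± 0.05 (SE), adjusted p = 0.068), but it passed under a filter of 10 counts in each library, with DESeq2, and without siTP63b replicate 3 or siSOX2b replicate 2 (adjusted p = 0.040 to 0.047).

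**Figure D3:**
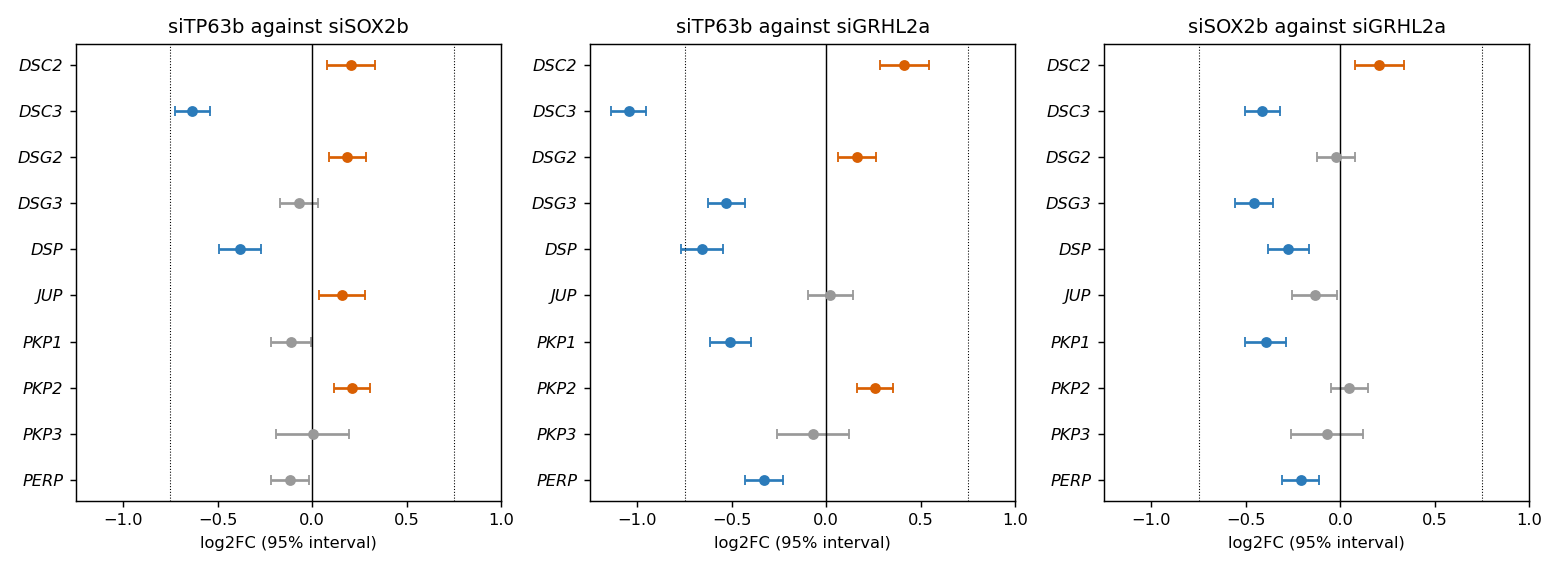
Log2FC of each member in the 3 comparisons among siTP63b, siSOX2b and siGRHL2a (horizontal axes; points, edgeR estimate; bars, 95% interval without adjustment for multiple testing). Blue and orange mark genes lower and higher in the group named first at an adjusted p below 0.05, grey those that did not pass; DSC3 in siTP63b against siGRHL2a is the single point beyond the dotted lines at an absolute log2FC of 0.75.

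PKP1 was 192, 179.8 and 209.9 CPM in siTP63b, 220.4, 204 and 203 CPM in siSOX2b and 268, 266 and 292 CPM in siGRHL2a. The siGRHL2a libraries were all highest, and PKP1 was lower in siTP63b (log2FC -0.51 ± 0.05 (SE), adjusted p = 5e-09) and in siSOX2b (log2FC -0.40 ± 0.05 (SE), adjusted p = 8.6e-07) than there. Its siTP63b and siSOX2b libraries overlapped (log2FC -0.11 ± 0.05 (SE), adjusted p = 0.11), and the difference passed without siTP63b replicate 3 (adjusted p = 0.012). PKP2 was 110.2, 103 and 104 CPM in siTP63b, 92.1, 91.3 and 90.9 CPM in siSOX2b and 86.9, 90.0 and 88.6 CPM in siGRHL2a. It was raised in siTP63b over siSOX2b (log2FC 0.21 ± 0.05 (SE), adjusted p = 0.00073) and over siGRHL2a (log2FC 0.26 ± 0.05 (SE), adjusted p = 7e-05), whereas siSOX2b and siGRHL2a lay close together (log2FC 0.05, 95% interval -0.05 to 0.14).

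JUP was 421, 423 and 509 CPM in siTP63b, 397, 379 and 436 CPM in siSOX2b and 433, 448 and 451 CPM in siGRHL2a. The third siTP63b library stood apart from the other 2 of its group, and all 3 groups overlapped their neighbour in order. The test called JUP higher in siTP63b than in siSOX2b (log2FC 0.16 ± 0.06 (SE), adjusted p = 0.04), but this was lost without siTP63b replicate 3 (log2FC 0.06, adjusted p = 0.44), without siSOX2b replicate 1 (adjusted p = 0.12) or replicate 2 (adjusted p = 0.21), and with only the 6 libraries fitted (adjusted p = 0.090). JUP did not pass in siTP63b against siGRHL2a (log2FC 0.02, 95% interval -0.10 to 0.14) or in siSOX2b against siGRHL2a (log2FC -0.14 ± 0.06 (SE), adjusted p = 0.092), the latter passing without siSOX2b replicate 3 (adjusted p = 0.037). PKP3 ranged from 22.8 to 30.5 CPM over the 9 libraries and passed in 0 of the 3 comparisons, with log2FC of 0.0040, -0.07 and -0.07 and 95% intervals within -0.26 to 0.20.

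Across the sets only values are given for the members, since set and knockdown cannot be told apart. JUP had a mean of 178 CPM in siNC1 and 404 to 451 CPM in the second set, with log2FC over siNC1 of 1.34 in siTP63b, 1.18 in siSOX2b and 1.32 in siGRHL2a. PKP3 had 1.25, 1.25 and 1.32 in the same order. PERP had 0.55, 0.66 and 0.88, and DSG2 had -0.30, -0.49 and -0.46. For these 4 genes the libraries of each second-set group lay on 1 side of those of siNC1, which all 3 values share as control. DSP had -0.73, -0.35 and -0.08 and PKP2 had 0.27, 0.06 and 0.01, with siGRHL2a overlapping siNC1 in both. The sign differed between groups for DSC3 (-0.95, -0.32 and 0.10), DSC2 (0.32, 0.11 and -0.10), DSG3 (-0.23, -0.16 and 0.30) and PKP1 (-0.41, -0.30 and 0.09). At an adjusted p below 0.05 in the edgeR test against siNC1, 26.2% of all genes tested were lower and 28.0% higher in siTP63b. These shares were 27.3% and 28.1% in siSOX2b, and 25.8% and 28.2% in siGRHL2a. In them, too, set and knockdown cannot be told apart.

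Ratios of raw counts between related members do not depend on the normalization of a library and show changes in the balance of the squamous and the widespread forms. Their size also depends on gene length, so that a value above or below 1 does not give which form is more abundant. The ratios do not remove a difference between the sets that is particular to a gene, and are compared within a set only. The ratio of DSC3 to DSC2 counts was 5.8 ± 0.212 (SD, n = 3) in siNC1 and 7.48 ± 0.563 in siKLF5b. In the second set it was 2.41 ± 0.163 in siTP63b, 4.32 ± 0.205 in siSOX2b and 6.62 ± 0.196 in siGRHL2a. The ratio was higher in siKLF5b than in siNC1 and, within the second set, lowest in siTP63b, without overlap of the groups of a set. The ratio of PKP1 to PKP2 was 2.94 ± 0.217 in siNC1 and 1.36 ± 0.0204 in siKLF5b. It was 1.83 ± 0.163 in siTP63b, 2.29 ± 0.0917 in siSOX2b and 3.11 ± 0.167 in siGRHL2a. It was lower in siKLF5b than in siNC1, and lowest in siTP63b within the second set. The ratio of DSG3 to DSG2 was 0.293 ± 0.00722 in siNC1, 0.321 ± 0.00414 in siKLF5b, 0.308 ± 0.00686 in siTP63b, 0.368 ± 0.0093 in siSOX2b and 0.497 ± 0.00346 in siGRHL2a. It stayed below 1 in every library and, within the second set, was highest in siGRHL2a. With 3 libraries against 3 the exact permutation test cannot give a p below 0.1, and these ratios are given without a test.

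**Figure D4:**
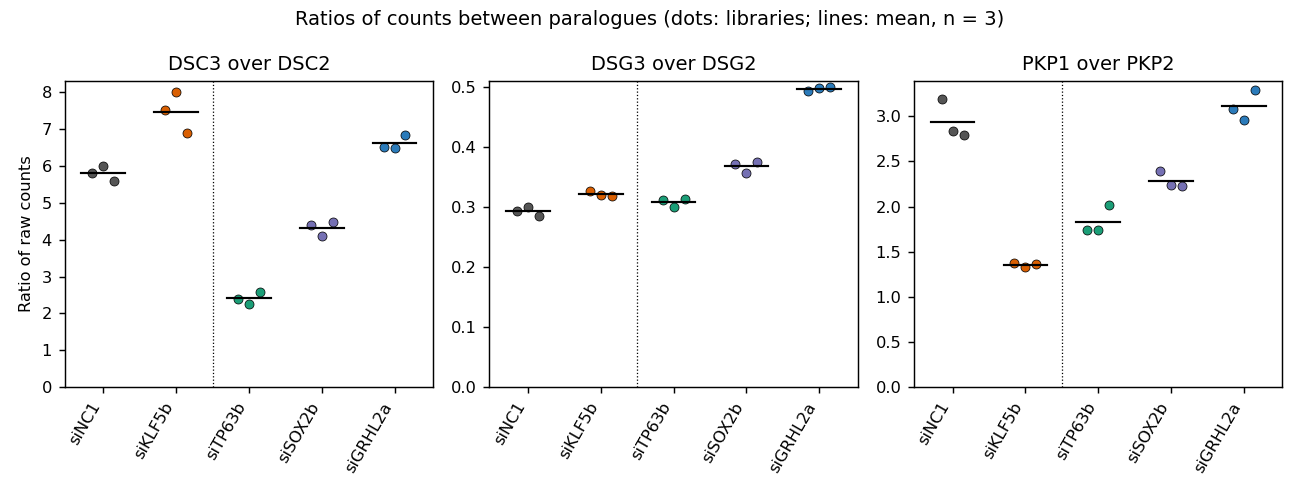
Ratio of raw counts of DSC3 to DSC2, DSG3 to DSG2 and PKP1 to PKP2 in each library (vertical axes from 0; dots, libraries; lines, mean of 3). The DSC3 to DSC2 ratio spans 2.26 to 2.59 in siTP63b and 6.49 to 6.84 in siGRHL2a, and the PKP1 to PKP2 ratio spans 1.33 to 1.37 in siKLF5b.

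The cadherin genes occupy 2 neighbouring blocks, desmocollins on the minus strand and desmogleins on the plus strand, within 559.6 kb from the end of DSC3 to the end of DSG2. Neighbours in this cluster differed in level and, in part, in direction. DSC3 and DSC2, adjacent on the same strand, moved oppositely in siTP63b against siGRHL2a, and DSC1 beside them had at most 14 counts in any library. DSG4, between DSG1 and DSG3, had at most 2 counts, which is under the floor of 3 counts, and no fold is given. DSG2 shares 6863 bases with DSG2-AS1, a lncRNA on the opposite strand that held 41.0% as many counts as DSG2, and the ratio of both lay between 0.382 and 0.429 in every library. The strand setting of the counting is not given in the sources used here, so that reads of DSG2 and DSG2-AS1 from the shared bases cannot be told apart. The other genes overlapping members held few counts, DSCAS 2.48% as many as DSC2 and a lncRNA 0.903% as many as DSP. For PKP2, 2 overlapping genes held 0.460% and 0.0489% as many. These are the counts of the whole overlapping gene, and reads from the shared bases were not counted apart.

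**Figure D5:**
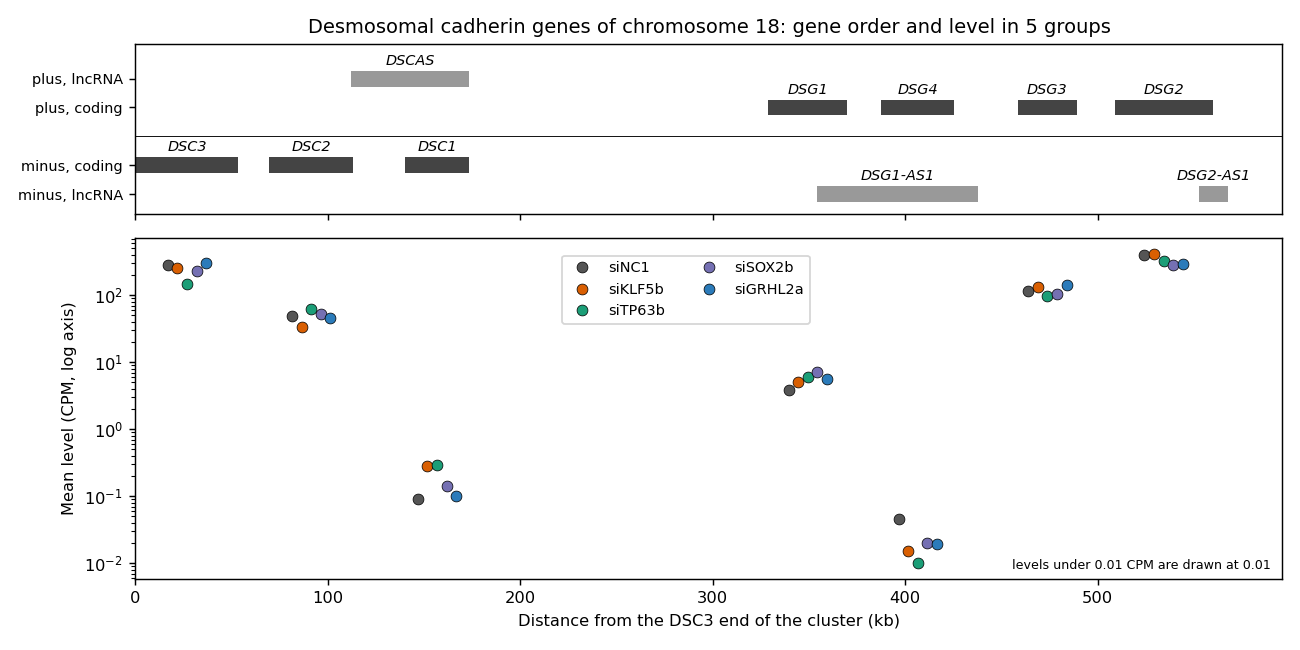
Desmosomal cadherin genes on chromosome 18 by distance in kb from the DSC3 end (horizontal axis), with gene spans by strand above and the mean level of each coding gene in the 5 groups below (CPM, log axis; levels under 0.01 drawn at 0.01). DSC3, DSG2, DSG3 and DSC2 lie between 33.7 and 416 CPM, DSG1 between 3.89 and 7.06 CPM, DSC1 at 0.295 CPM or less and DSG4 at 0.0463 CPM or less.

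The genes around the desmosome were counted by list. The counts stand beside those over all genes, of which 12.9% were lower and 10.3% higher in siKLF5b against siNC1, 15.4% and 16.4% in siTP63b against siSOX2b, 13.4% and 13.6% in siTP63b against siGRHL2a, and 12.7% and 11.8% in siSOX2b against siGRHL2a. Of the other desmosomal genes, 5 of 7 were tested. In that order, 1, 1, 0 and 1 of them were lower and 1, 1, 2 and 1 higher. PPL (periplakin, a plakin of the cornified envelope) was called in all 4 comparisons, lower in siKLF5b than in siNC1 (log2FC -0.80 ± 0.06 (SE), adjusted p = 2.9e-11). It was higher in siTP63b than in siSOX2b (log2FC 0.48 ± 0.06 (SE), adjusted p = 2.3e-07) and than in siGRHL2a (log2FC 0.17), and lower in siSOX2b than in siGRHL2a (log2FC -0.31 ± 0.06 (SE), adjusted p = 0.0003). DSG1 was higher in siKLF5b at the edge of the threshold (log2FC 0.42, adjusted p = 0.0497), EVPL (envoplakin) was lower in siTP63b than in siSOX2b (log2FC -0.25), and PKP4 was higher in siTP63b and in siSOX2b than in siGRHL2a (log2FC 0.14 and 0.17). Of 17 desmosome-associated proteins, 11 were lower and 1 higher in siKLF5b, where 26.0% and 14.5% of the genes at 20.4 CPM or more were, among them the sheddase ADAM17 (log2FC -0.47), the receptor kinase EGFR (-0.42) and the calcium pump ATP2A2 (-0.34). In siTP63b 6 were lower and 4 higher against siSOX2b, led by MAPRE1 (log2FC -0.84), FLOT2 (1.17) and PNN (-0.61), and 7 were lower and 5 higher against siGRHL2a. In siSOX2b against siGRHL2a 3 were lower and 4 higher, led by FLOT2 (log2FC -1.22) and EGFR (-0.68).

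The keratins form the filaments to which DSP binds. In siKLF5b 9 of 16 were lower and 1 was higher, against 12.9% and 10.3% of all genes, with log2FC of -1.47 for KRT17, -1.29 for KRT6A and -0.93 for KRT13, and a list median of -0.63 beside -0.15 for the 10 desmosome genes. In siTP63b against siSOX2b 7 were lower and 4 higher (all genes, 15.4% and 16.4%), with the simple-epithelial KRT18 and KRT8 at 1.12 and 1.00 and KRT17 at -1.17. Against siGRHL2a 10 were lower and 2 higher in siTP63b (all genes, 13.4% and 13.6%), with KRT18 at 1.37, KRT8 at 0.98 and the basal KRT14 at -1.53. In siSOX2b against siGRHL2a 9 were lower and 1 higher (all genes, 12.7% and 11.8%), led by KRT19 at -0.33, KRT6B at -1.78 and KRT18 at 0.26. KRT6A and KRT6B have near-identical copies, for which reads may be split or left out, and their values are uncertain. The 8 squamous markers were KRT5, KRT6A, KRT14, KRT17, DSG3, SERPINB5 and the siRNA targets TP63 and SOX2, and KRT5 made up most of their sum. They summed to 6034 to 7055 CPM in siKLF5b and 9932 to 11424 CPM in siNC1. The sums were 6632 to 7718 CPM in siTP63b, 9538 to 10505 CPM in siSOX2b and 11967 to 12328 CPM in siGRHL2a, and their part in the values of the desmosome genes was not tested. In the order of comparisons given above, 5, 5, 6 and 6 of these 8 were lower and 2, 1, 1 and 1 higher. Without TP63 and SOX2, 5, 4, 5 and 4 of 6 were lower and 1, 0, 0 and 1 higher. These 6 include DSG3, itself a desmosome member, which was higher in siKLF5b and lower in both comparisons with siGRHL2a. Of the 5 epithelial markers 4, 0, 1 and 2 were lower and 0, 2, 2 and 1 higher, and of the 6 tested markers of other cell types 1, 2, 2 and 1 were lower and 0, 1, 0 and 1 higher.

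In the adherens junction, which JUP also joins, 7 of 12 genes were lower and 1 higher in siKLF5b, beside 12.9% and 10.3% of all genes and 26.0% and 14.5% of those at 20.4 CPM or more, with VCL at log2FC -0.43, CDH2 at -0.49 and CDH3 at -0.33. In siTP63b 3 were lower and 4 higher against siSOX2b, with VCL at 0.55, CTNND1 at 0.50 and CDH2 at -0.59, and 4 were lower and 6 higher against siGRHL2a. In siSOX2b against siGRHL2a 3 were lower and 1 higher, led by CTNND1 at -0.33. Hemidesmosome genes, which attach keratin to the basement membrane, were counted in the same way. In siKLF5b 7 of 9 were lower and 2 higher, the latter DST (log2FC 0.17) and the collagen COL17A1 (log2FC 0.67 ± 0.06 (SE), adjusted p = 3.8e-10). In siTP63b 7 were lower and 0 higher against siSOX2b and 8 lower and 0 higher against siGRHL2a. The integrin ITGA6 had log2FC of -0.95 and -1.06 there, and the laminin chain LAMB3 had -0.70 and -0.98. In siSOX2b 4 were lower, 0 higher and 5 not called against siGRHL2a, led by COL17A1 at -0.38. Of the neighbours in the chromosome 18 cluster, 5 of 8 were tested, and 2, 1, 2 and 1 of them were higher and 0 lower in the 4 comparisons, including B4GALT6 in siTP63b and in siSOX2b against siGRHL2a (log2FC 0.42 and 0.49).

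The likeness of members was described by Pearson's r of log2 CPM over the 15 libraries after subtracting the mean of each set, without a test, since libraries of a group share their treatment. DSC3 and DSP were the most similar pair (r = 0.97). Over the 15336 genes averaging 100 counts or more, 5 had a higher r with DSP than DSC3: ATP2B4, TACC2, DHX40, IVNS1ABP and STON1-GTF2A1L, with r of 0.967 to 0.974. PKP1 (r = 0.82) and DSG3 (r = 0.74) came next among the members, but 365 and 838 of the 15336 genes had a higher r with DSP. DSC2 and PERP were the most opposed pair (r = -0.91), and PKP2 was closest to PERP (r = 0.72). The 45 pairs had a median r of 0.02, and 24 were above 0.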

How the data were processed

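Poly(A) RNA of HCC95 cells was sequenced in 15 libraries, 3 for each of 5 siRNA labels. Paired reads were mapped to hg38 by the authors (HISAT2 2.2.1), uniquely mapped ones were assigned to Gencode release 40 genes (featureCounts 2.0.1), and raw counts per gene were deposited. Strand use, and whether a pair was counted once or by its reads, are not given in the sources used here. The counted length was the whole gene span for 61544 of 61544 genes, and exon lengths were taken from Gencode release 44, in which 8 of the 10 members have the same span.

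The analysis used edgeR 4.0.16 in R 4.3.3: TMM factors, filterByExpr by group, and 1 quasi-likelihood fit of a mean per group over 15 libraries, so that groups share an estimate of spread. P-values were adjusted by Benjamini-Hochberg over 25108 genes. The test gives no SE, and that of a log2FC was derived as its absolute value over the square root of the F statistic. The 95% intervals are this SE times the t quantile on either side of the log2FC. CPM used TMM-scaled totals, and log2 CPM a prior count of 2. A gene was called at an adjusted p below 0.05, and past both thresholds with an absolute log2FC above 0.75. Library pairs of a group differed beyond sampling noise, with a chi-square per gene of 1.95 to 4.02 in the first set and 4.67 to 7.48 in the second. Counting both reads of a pair would raise this value, so that the sets are not compared by it. Steps were tested on simulated data.

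The 10 members and the lists (other desmosomal genes, desmosome-associated proteins, keratins, adherens junction, hemidesmosome, cluster neighbours, squamous, epithelial and other-cell markers) were chosen with earlier results of these data known. All members are named; of each list, up to 3 genes with the smallest adjusted p per comparison; and the 5 genes most like DSP. Genes named outside this rule were chosen after their values were seen: DSC1, DSG4, DSCAS, DST, SERPINB5 and the near-zero markers. Alternatives were RLE and upper-quartile scaling, 2 count filters, DESeq2 1.42.0, a replicate block, only the 6 libraries compared, halved counts in the second set, an absolute log2FC above 1 and each library left out.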

Additional observations from a re-analysis of the deposited data

How the results depend on the processing

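Of 560 recomputed log2FC of the members, 14 for each member and comparison, 535 kept direction and call, 8 lost and 8 gained the call, and 9 changed sign, all of them in genes that had not passed. PKP3 in siTP63b against siSOX2b was -0.00040 with at least 10 counts in every library and -0.0028 with only the 6 libraries compared, and -0.069 to 0.101 with a library left out. With a library left out, in siTP63b against siGRHL2a PKP3 was -0.133 to 0.040 and JUP -0.064 to 0.076, and DSG2 in siSOX2b against siGRHL2a was -0.040 to 0.031. Past both thresholds, PERP in siKLF5b was lost at an absolute log2FC above 1 (0 members). With a library left out, the members lower in siTP63b against siSOX2b numbered 2 to 4, the largest count without siTP63b replicate 3, and those higher in siSOX2b against siGRHL2a 0 to 1, with 0 without siSOX2b replicate 1 or 2. The cause was not tested. RLE and upper-quartile scaling, halved counts, no low-count filter and the replicate block changed 0 calls of the members.

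Libraries with the same number did not deviate together over all genes (r of -0.03 to 0.03), so that no pairing by number was seen. A weak pairing could be missed by this measure. With the replicate block the numbers of all genes called moved from 5828 to 5789, 7977 to 7944, 6792 to 6803 and 6151 to 6117 in the 4 comparisons, and the members lower and higher stayed at 4 and 3, 2 and 4, 5 and 3, and 5 and 1. Of the members, depth limits PKP3 most, with 167 to 1012 counts per library. Outside the members, DSC1 had 0 to 14 counts per library and DSG4 0 to 2, the latter under the floor of 3 counts.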
